A study of Mus musculus with 10 samples.

Results

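Transcripts of the phosphatase calcineurin, its modulators and the NFAT transcription factors were examined in mouse hearts in which SPOP, an adaptor of a ubiquitin ligase, was overexpressed. The 10 genes were taken by name from a table of 24888 genes: the catalytic subunit genes Ppp3ca and Ppp3cb, the regulatory subunit gene Ppp3r1, the modulators Rcan1 and Rcan2, the factors Nfatc1 to Nfatc4, and Myoz2, a Z-disc partner of calcineurin. All 10 were present and all 10 passed the filter on low values (10 or more scaled reads in 5 or more libraries). Poly(A) RNA was sequenced from whole heart tissue of 10 mice, with 5 libraries in each group. The group called SPOP_CKI carries the SPOP knock-in, switched on by Cre under the cardiomyocyte promoter of Myh6 (alpha-myosin heavy chain). The group called Cre_control is titled wild type but carries that Cre transgene alone, so that Cre is common to both groups. The animals are labelled male, aged 8 to 10 weeks, and are described as under sham conditions.

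Calcineurin is a serine/threonine phosphatase activated by calcium and calmodulin, built of a catalytic A subunit and a calcium-binding B subunit. It removes phosphates from NFAT proteins, which then enter the nucleus and act on transcription with partners such as GATA4 and MEF2. In the heart this pathway is known for driving hypertrophic growth. The product of Rcan1 binds and inhibits calcineurin, and transcription of its short form from an internal start is a widely used readout of calcineurin and NFAT activity.

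Depth lay between 15316293 and 17114869 reads per library, and values below are scaled reads, that is, reads over the size factor that the authors used for that library. Spop itself stood between 25308 and 40631 scaled reads in SPOP_CKI and between 3078 and 3726 in Cre_control. Library SPOP_CKI 3 stood apart, with reads on 13167 genes against 18531 to 20806 in the other 9 libraries. Libraries SPOP_CKI 1, SPOP_CKI 3 and Cre_control 5 are labelled male but had 4491 to 6578 scaled reads of Xist and no read of the Y-linked genes Ddx3y, Kdm5d, Uty and Eif2s3y, while Xist was at 0 to 5.31 in the other 7. Genes of high transcript GC content were also low in SPOP_CKI. With genes divided into 4 equal sets by GC, the median deviation from the control mean in the set of highest GC, minus that in the set of lowest, was −0.44 to −2.24 (log2) in the SPOP_CKI libraries, lowest in SPOP_CKI 3, and −0.27 to 0.34 in the controls. Results below are therefore also given, where they change, without SPOP_CKI 3, without the 3 libraries with Xist reads, and with each library centred by GC content.

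Among the 10 genes, Rcan1 and Ppp3cb rose in SPOP_CKI hearts and none fell (limma, adjusted p under 0.05). Across all 14212 tested genes 22.3% passed that test, 10.0% as higher and 12.3% as lower, so that the number called among the 10 was near the background. The median difference of the 10 was −0.05 on the log2 scale, against −0.11 over all tested genes. With DESeq2 (29.1% of all genes called), with edgeR (22.3%) and without SPOP_CKI 3 (30.8%) both calls held. Leaving out any 1 of the 5 control libraries, or SPOP_CKI 4, ended both, while without SPOP_CKI 2 only Ppp3cb remained and without SPOP_CKI 1 or 5 only Rcan1. Over all genes 895 to 1155 were called higher without 1 control and 1065 without SPOP_CKI 4, against 1421 in the main fit. The number was 1299 without SPOP_CKI 2, 1415 without SPOP_CKI 1 and 1515 without SPOP_CKI 5. Without the 3 libraries with Xist reads, where 30.4% of all genes were called, with Xist reads as a term, and with GC centring, where 18.3% were, Rcan1 alone remained.

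**Figure D1:**
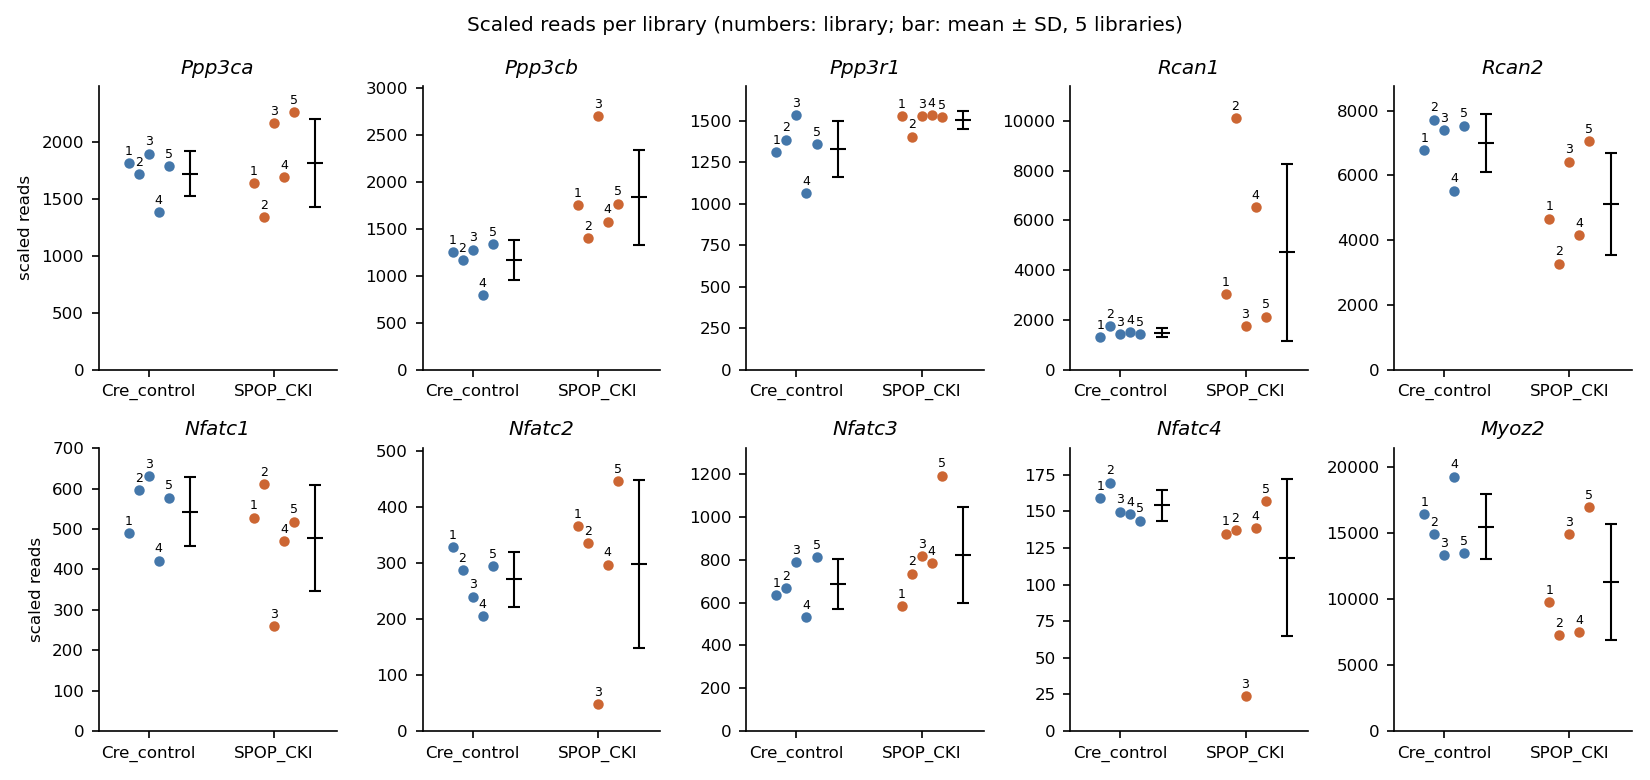
Scaled reads of each of the 10 genes in every library, 1 panel per gene, with libraries numbered 1 to 5 in each group and a bar for the mean ± SD. Rcan1 spreads from 1755 to 10118 in SPOP_CKI against 1293 to 1759 in Cre_control, and the lowest points of Nfatc1, Nfatc2 and Nfatc4 are those of SPOP_CKI 3.

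Rcan1 (ENSMUSG00000022951, mm10 chromosome 16, 92391953 to 92470867, minus strand) encodes the feedback modulator of calcineurin and had the largest coefficient of variation of the 10 genes within SPOP_CKI. Its scaled reads were 3037, 10118, 1755, 6524 and 2128 in SPOP_CKI libraries 1 to 5. In Cre_control they were 1293, 1759, 1425, 1505 and 1434. SPOP_CKI 2 and SPOP_CKI 4 stood far above the rest, at 6.82 and 4.40 times the control mean, and SPOP_CKI 3, at 1.18 times, lay just below the highest control, so that the groups overlapped by that 1 library. The means were 4713 ± 3561 and 1483 ± 172 (SD, n = 5 each), with a coefficient of variation of 75.6% in SPOP_CKI and 11.6% in Cre_control. The difference was 1.35 on the log2(scaled reads + 1) scale (SE 0.42, limma adjusted p = 0.041), or 2.55-fold. It was 0.99 without SPOP_CKI 2 and 1.62 without SPOP_CKI 3, and 1.53 with GC centring. The authors' deposited table lists a log2 fold change of 1.67 for Rcan1 with an adjusted p of 0.00103.

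Rcan1 has several starts and 7 transcripts in GENCODE M21. Rcan1-201 begins at an internal start (92400077) and Rcan1-202 at an upstream one (92466146), and RefSeq windows for these starts were used. Other protein-coding transcripts begin further upstream (92470867) and between them (92458475), and the windows before those starts were not examined. The deposited value sums all of them, so the share of each start was not measured. The 250 bases before the internal and the upstream start are shown because the internal one is the start known for NFAT control (RefSeq, GRCm38.p6, minus strand, 5′ to 3′). Capitals mark GGAAA, the core of NFAT sites, or its reverse complement TTTCC. The upstream window is chr16:92466170-92466419, the internal one chr16:92400079-92400328.
Rcan1 upstream start: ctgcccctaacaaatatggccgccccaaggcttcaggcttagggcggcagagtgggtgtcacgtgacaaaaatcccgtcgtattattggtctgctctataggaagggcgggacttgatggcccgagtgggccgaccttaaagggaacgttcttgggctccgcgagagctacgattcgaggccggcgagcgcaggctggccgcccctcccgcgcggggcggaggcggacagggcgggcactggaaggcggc
Rcan1 internal start: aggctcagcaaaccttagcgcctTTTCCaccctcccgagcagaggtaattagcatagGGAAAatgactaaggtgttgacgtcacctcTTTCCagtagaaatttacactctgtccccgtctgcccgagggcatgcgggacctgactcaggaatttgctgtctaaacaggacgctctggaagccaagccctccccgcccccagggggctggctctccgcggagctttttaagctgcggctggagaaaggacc
The internal window holds 3 matches, beginning 227, 193 and 163 bases before the start, and the upstream window 0. At least 1 match is present in 55.6% and at least 3 in 6.39% of the 32851 RefSeq promoter windows of that length, both strands counted. The internal window also holds 1 match to TGACTCA, the AP-1 site (4.46% of windows hold at least 1). It holds TGACGT, the core of the cyclic AMP response element, on both strands at overlapping positions, counted as 2 matches. At least 1 TGACGT match is present in 6.47% of windows and 2 or more in 1.80%. The upstream window instead holds 1 CACGTG, an E-box (6.02%). These matches describe the sequence and are not evidence of binding.

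The genes whose values over the 10 libraries were most like those of Rcan1, among 9853 other protein-coding genes with a mean of at least 100, were Timp1, Dram1, Msn, Cxcl16 and Lgals3 (Pearson r of log2 values 0.98, 0.98, 0.98, 0.98 and 0.97, as a description, since the genes share libraries and groups). Timp1 encodes an inhibitor of matrix metalloproteinases, Msn encodes the membrane-cytoskeleton linker moesin, Cxcl16 a chemokine and Lgals3 galectin-3. In each of the 5, SPOP_CKI 2 was highest and SPOP_CKI 4 the next. Msn and Cxcl16 passed the group test, while Timp1, Dram1 and Lgals3 did not (limma adjusted p = 0.0972, 0.0706 and 0.0949). Timp1 was at 7387 and 1817 in those libraries and at 40.3 to 152 in the other 3, against 48.0 ± 17.4 in Cre_control (n = 5). Lgals3 was at 1097 and 1014 there, and at 82.3 to 164 in the other 3. The summed level of 7 macrophage markers was likewise highest in SPOP_CKI 4 and SPOP_CKI 2, at 8783 and 6849, against 2803 to 4005 in the other SPOP_CKI libraries and 2931 to 4182 in controls. Of those markers 3 of 7 were higher and 1 lower, against 10.0% and 12.3% of all tested genes, and their part in the Rcan1 difference was not tested. The summed level of 8 fibroblast markers was also highest in SPOP_CKI 4, at 104776, then in SPOP_CKI 3, at 79220, with 1 of 8 higher and 0 lower. Among them Col1a1 and Col1a2 were at 16112 and 20556 in SPOP_CKI 4 and at 13923 and 13098 in SPOP_CKI 2. They were at 1059 to 4432 and 2712 to 3816 in the other SPOP_CKI libraries, while Dcn was highest in SPOP_CKI 3, at 42748. The part of fibroblasts was not tested either. In bulk tissue a change in the number of cells of a type and a change in RNA per cell cannot be told apart.

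Rcan2 (ENSMUSG00000039601, chromosome 17, 43801351 to 44039516, plus strand), the related modulator gene, did not pass the test. It stood at 4664, 3272, 6426, 4158 and 7060.3 scaled reads in SPOP_CKI libraries 1 to 5. The control libraries had 6777, 7725, 7397, 5528 and 7533. Libraries SPOP_CKI 1, 2 and 4 lay below every control, while SPOP_CKI 3 and 5 lay within the control range. The difference was −0.50 (log2, SE 0.22, limma adjusted p = 0.123). With SPOP_CKI 5 left out it was −0.63 and passed (adjusted p = 0.0493), as it did with array weights, where limma gives less weight to deviating libraries. Of all tested genes, 1865 of 14439 and 2891 of 14212 were called lower in those settings, against 1747 of 14212 in the main fit.

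The balance of the modulators within a library does not depend on the library scaling, and it differed between groups. Per kilobase of gene length, the Rcan1 to Rcan2 ratio was 0.92, 4.38, 0.39, 2.22 and 0.43 in SPOP_CKI libraries 1 to 5. It was 0.27, 0.32, 0.27, 0.39 and 0.27 in the controls. Rcan1 exceeded Rcan2 per kilobase in SPOP_CKI 2 and 4 alone, and the lowest SPOP_CKI library, SPOP_CKI 3, and the highest control, Cre_control 4, met at nearly the same value (log2 ratio −1.3695 and −1.3737). The mean log2 ratio was 0.11 ± 1.52 in SPOP_CKI and −1.73 ± 0.23 in Cre_control, a difference of 1.85 (exact two-sided permutation test p = 0.0079, the smallest that 5 against 5 allows, adjusted p = 0.0159 over 4 measures of composition, higher in 5 of 5 libraries). The call was lost when any 1 control library was left out, with differences of 1.81 to 1.93. Rcan1 against the summed catalytic subunit genes gave a log2 difference of 1.003 that did not pass (exact permutation, adjusted p = 0.243). It passed without SPOP_CKI 3, at 1.39 (adjusted p = 0.0423), and with GC centring, at 1.51 (adjusted p = 0.0159).

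**Figure D2:**
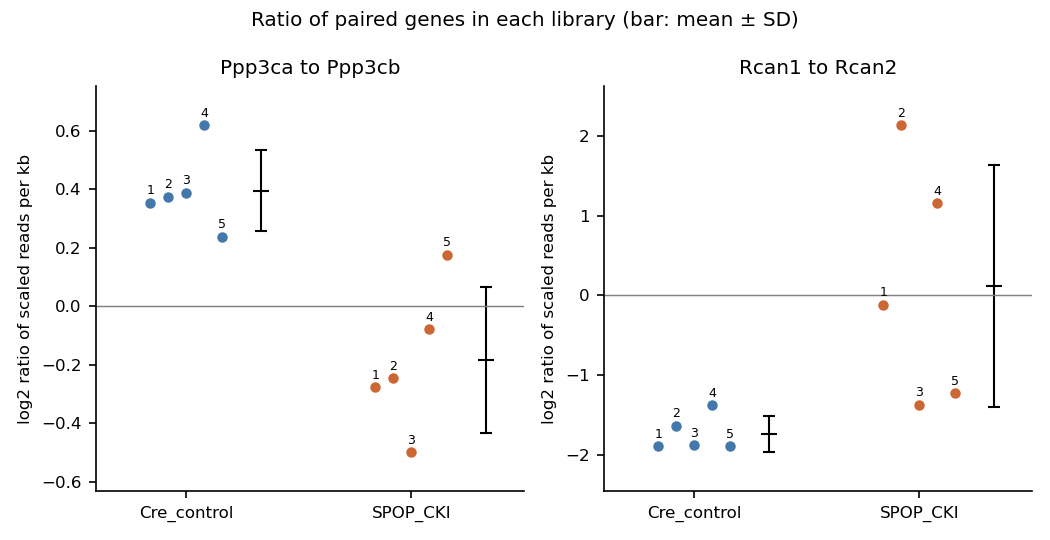
Log2 ratio of scaled reads per kilobase of Ppp3ca to Ppp3cb and of Rcan1 to Rcan2 in each library, numbered 1 to 5 in each group, with a bar for the mean ± SD. The Ppp3ca to Ppp3cb ratios of SPOP_CKI lie at −0.50 to 0.18, all below the controls at 0.24 to 0.62, and the Rcan1 to Rcan2 ratios of SPOP_CKI lie at −1.37 to 2.13.

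Of the catalytic subunit genes, Ppp3cb (ENSMUSG00000021816, chromosome 14, 20499364 to 20546573, minus strand), the calcineurin A beta gene, was higher in every SPOP_CKI library than in any control. Its scaled reads were 1747, 1397, 2699, 1573 and 1764 in SPOP_CKI libraries 1 to 5. The controls had 1249, 1166, 1278, 795 and 1334. The highest library was SPOP_CKI 3 and the lowest was Cre_control 4. Such a complete separation upward was seen in 1 of the 10 genes and in 9.01% of all tested genes. The difference was 0.64 (log2, SE 0.20, limma adjusted p = 0.0435), or 1.56-fold, with means of 1836 ± 505 and 1164 ± 215 (n = 5 each). The authors' deposited table lists 0.66 with an adjusted p of 0.0314. Transcripts of Ppp3cb have a GC content of 37.5%, and 0.751% of tested genes have a lower one. With GC centring the difference was 0.16 and did not pass (limma adjusted p = 0.406).

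The sequence before the Ppp3cb start is shown beside those of Rcan1, as the other gene that passed (RefSeq, GRCm38.p6, chr14:20546574-20546823, minus strand, 5′ to 3′, capitals as above).
Ppp3cb: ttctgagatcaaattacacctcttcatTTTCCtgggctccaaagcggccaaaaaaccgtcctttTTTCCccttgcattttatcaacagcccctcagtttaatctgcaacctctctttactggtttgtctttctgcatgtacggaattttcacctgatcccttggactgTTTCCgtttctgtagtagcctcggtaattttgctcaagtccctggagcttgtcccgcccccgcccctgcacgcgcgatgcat
It also holds 3 matches to GGAAA, beginning 223, 186 and 82 bases before the start, and 0 matches to the other 3 motifs named above. RefSeq windows were used for 8 of the 10 genes, and none for Ppp3ca or Nfatc1. A window of Nfatc2 and that of Nfatc4, which did not pass, hold 3 matches to GGAAA as well.

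Ppp3ca (ENSMUSG00000028161, chromosome 3, 136670124 to 136937727, plus strand), the calcineurin A alpha gene, had 1635, 1336, 2166, 1689 and 2259 scaled reads in SPOP_CKI libraries 1 to 5 and 1810.2, 1713, 1896, 1384 and 1783 in the controls. The groups overlapped widely, and the difference was 0.06 (SE 0.17, limma adjusted p = 0.809). The balance of the catalytic subunit genes within a library differed between groups. Per kilobase, the ratio of Ppp3ca to Ppp3cb was 0.83, 0.84, 0.71, 0.95 and 1.13 in SPOP_CKI libraries 1 to 5. In the controls it was 1.28, 1.30, 1.31, 1.54 and 1.18. By this annotated length Ppp3ca was above Ppp3cb in all 5 controls and below it in 4 of 5 SPOP_CKI hearts. The log2 ratio was 0.58 lower in SPOP_CKI, with means of −0.18 ± 0.25 and 0.40 ± 0.14 and no overlap between groups (log2 difference −0.58, exact two-sided permutation p = 0.0079, adjusted p = 0.0159 over the 4 measures). The call was lost when any 1 control library was left out (exact permutation, adjusted p = 0.0635 in each case). With GC centring the log2 difference was −0.26 (exact permutation, adjusted p = 0.116). Transcripts of Ppp3ca have 46.7% GC.

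Among the genes most like Ppp3cb over the 10 libraries were Manea, Zfx, Gpbp1 and Tmem30a (Pearson r of log2 values 0.98 to 0.99, as a description). Manea encodes an endomannosidase of the Golgi and Zfx a zinc finger transcription factor. These 4 were highest in SPOP_CKI 3, Manea at 1294 against 485 to 694 in the other SPOP_CKI libraries. Their transcript GC content was 39.9% to 46.7%.

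The regulatory subunit gene Ppp3r1 (ENSMUSG00000033953, chromosome 11, 17159263 to 17200375, plus strand), which encodes calcineurin B, was the steadiest of the 10 genes in SPOP_CKI. Its scaled reads were 1527, 1403, 1526, 1534 and 1521 in SPOP_CKI libraries 1 to 5, a coefficient of variation of 3.69%. The controls had 1309, 1386, 1533, 1063 and 1359. The SPOP_CKI libraries clustered at the upper end of the control range, and 1 of them exceeded it. The difference was 0.18 (SE 0.13, limma adjusted p = 0.323). Its transcripts have 40.7% GC, and with GC centring the difference was −0.24 (adjusted p = 0.201).

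**Figure D3:**
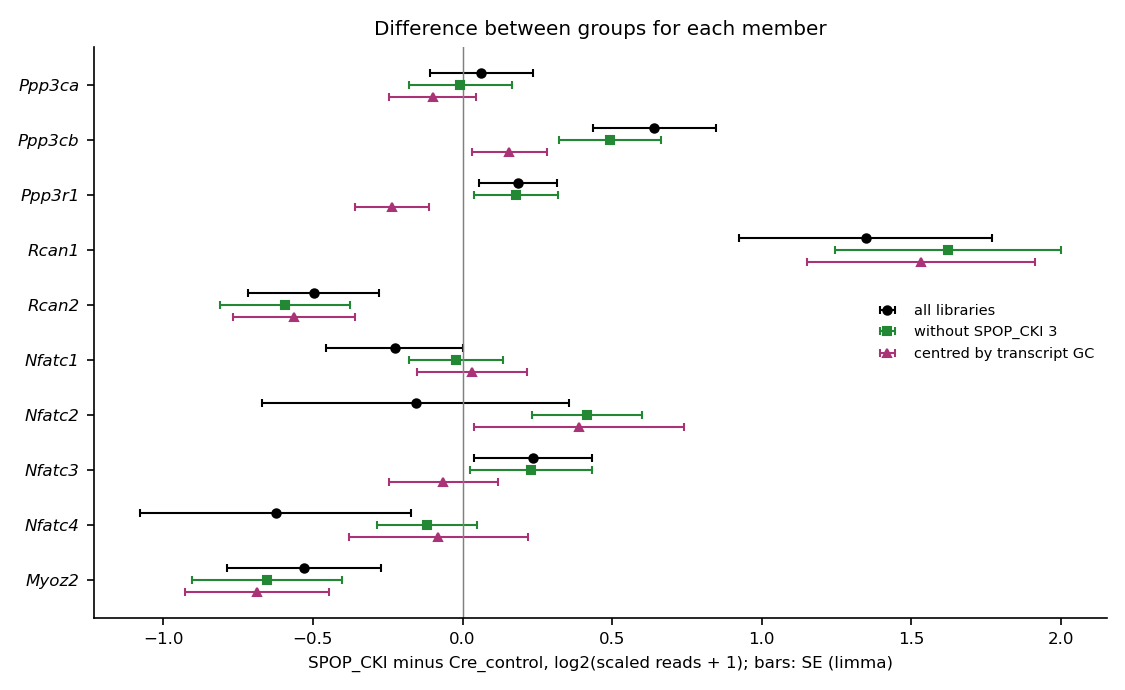
Difference of SPOP_CKI minus Cre_control for each gene on the log2(scaled reads + 1) scale with SE bars (limma), over all libraries, without SPOP_CKI 3 and with GC centring. Rcan1 stays between 1.35 and 1.62 in these 3 settings, Ppp3cb is at 0.16 with GC centring, and Nfatc2 lies at −0.16 with all libraries and at 0.42 without SPOP_CKI 3.

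None of the 4 calcineurin-dependent NFAT genes passed the test, and the largest deviations among them came from 1 library. Nfatc1 (ENSMUSG00000033016), the NFAT gene known from the endocardium and heart valves, had 529, 611, 260.1, 469.6 and 518 scaled reads in SPOP_CKI libraries 1 to 5 and 490.2, 596, 631, 422 and 578 in the controls. Only SPOP_CKI 3 fell outside the control range. The difference was −0.23 (SE 0.23, limma adjusted p = 0.489), and −0.02 without SPOP_CKI 3. The summed level of 7 endothelial markers was 15458 to 21712 in SPOP_CKI and 24416 to 27873 in Cre_control, with 4 of 7 lower and 0 higher, against 12.3% and 10.0% of all tested genes. The summed level of 4 endocardial markers was 3345 to 4594 and 3288 to 4438, with 1 of 4, Cytl1, lower (log2 difference −1.27, limma adjusted p = 0.0159) and 0 higher. Their part in the Nfatc1 values was not tested.

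Nfatc2 (ENSMUSG00000027544, chromosome 2, 168476410 to 168601657, minus strand), best known from T lymphocytes, stood at 366, 336, 48.2, 297 and 446 in SPOP_CKI libraries 1 to 5. In the controls it stood at 329, 288, 240.3, 205 and 295. SPOP_CKI 3 was far below all other libraries, while 3 of the other 4 SPOP_CKI libraries were above every control. The difference was −0.16 (SE 0.51, limma adjusted p = 0.842), and 0.42 without SPOP_CKI 3 (SE 0.18, adjusted p = 0.0988). The sign thus depended on that library. Summed over 6 markers of T and B lymphocytes, the libraries held 0 to 90.0 scaled reads in SPOP_CKI and 14.7 to 77.5 in Cre_control, with all 6 markers at 0 in SPOP_CKI 3.

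Nfatc3 (ENSMUSG00000031902, chromosome 8, 106058840 to 106130537, plus strand), an NFAT gene that has been tied to cardiac hypertrophy in mice, had 584, 735, 817, 784 and 1194 scaled reads in SPOP_CKI and 636, 666, 789, 533 and 813 in the controls. SPOP_CKI 5 was highest, and the groups overlapped. The difference was 0.24 (SE 0.20, limma adjusted p = 0.405). Nfatc4 (ENSMUSG00000023411, chromosome 14, 55823144 to 55833943, plus strand), whose product was described as a partner of GATA4 in hypertrophy, had 135, 137, 23.6, 139 and 157 in SPOP_CKI. The controls, at 159, 169.5, 150, 148 and 144, had the smallest spread of the 10 genes in that group, with a coefficient of variation of 6.73%. In 4 of 5 SPOP_CKI libraries Nfatc4 was below every control, by a small margin except in SPOP_CKI 3. The difference was −0.62 (SE 0.45, limma adjusted p = 0.333), and −0.12 without SPOP_CKI 3.

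Taken as a pool per kilobase, the 4 NFAT genes reached 183 ± 46.1 in SPOP_CKI and 184 ± 22.4 in Cre_control (n = 5 each), a log2 difference of −0.04 (exact permutation, p = 0.833). The summed level was lowest in SPOP_CKI 3, at 113, and highest in SPOP_CKI 5, at 240.8. Nfatc1 made up 36.9% to 42.3% and Nfatc3 29.4% to 34.7% of the pool in controls. In SPOP_CKI those shares were 29.0% to 41.1% and 27.9% to 61.5%. In SPOP_CKI 3, Nfatc3 held 61.5% of the pool while Nfatc2 and Nfatc4 held 4.02% and 3.59%. Transcripts of Nfatc3 have 44.0% GC, and those of Nfatc2 and Nfatc4 57.5% and 57.4%.

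**Figure D4:**
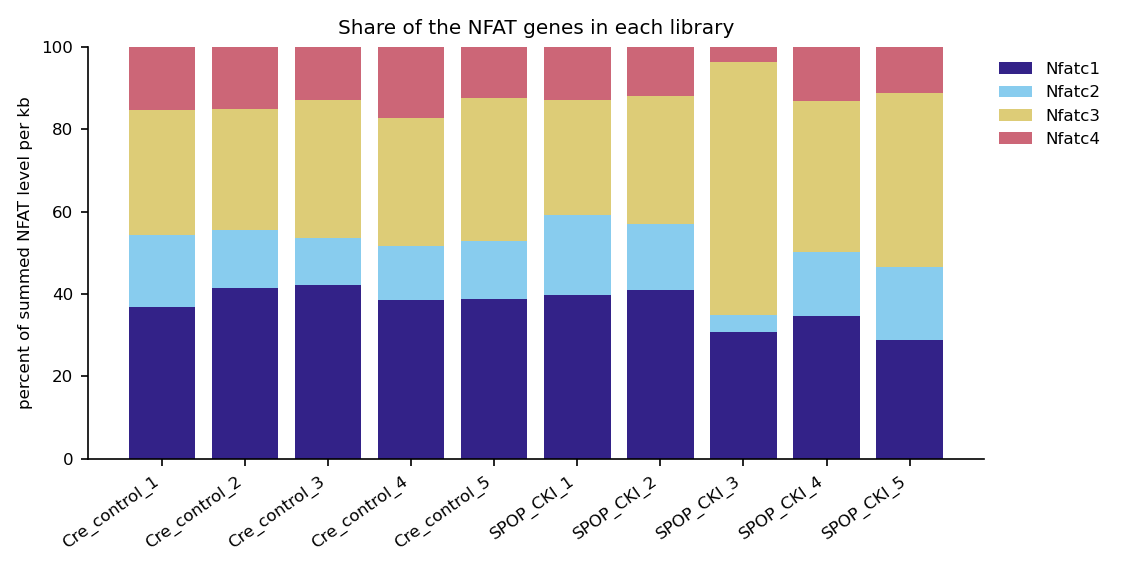
Share of Nfatc1, Nfatc2, Nfatc3 and Nfatc4 in their summed level per kilobase, 1 stacked bar per library in percent. Library SPOP_CKI 3 differs from the other 9, with 61.5% from Nfatc3 and 4.02% from Nfatc2.

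Myoz2 (ENSMUSG00000028116, chromosome 3, 123006206 to 123035015, minus strand) encodes calsarcin-1, which tethers calcineurin to the sarcomeric Z-disc of cardiomyocytes and restrains it. It had 9780 scaled reads in SPOP_CKI 1, 7287 in SPOP_CKI 2, 14951 in SPOP_CKI 3, 7495 in SPOP_CKI 4 and 16970.0 in SPOP_CKI 5. The controls had 16431, 14931, 13340.4, 19294 and 13514. Libraries SPOP_CKI 1, 2 and 4 lay below every control and the other 2 within their range, the same division as for Rcan2. The difference was −0.53 (SE 0.26, limma adjusted p = 0.156), and it passed only with array weights among the alternatives tried, at −0.79 (adjusted p = 0.00607). Array weights called 2891 of 14212 genes lower, against 1747 in the main fit. In SPOP_CKI the order of libraries from lowest to highest was 2, 4, 1, 3, 5 for both Myoz2 and Rcan2. For Rcan1 the order from highest to lowest was 2, 4, 1, 5, 3. The summed level of 9 ventricular cardiomyocyte markers was 335485 to 636567 in SPOP_CKI, lowest in SPOP_CKI 2 and next in SPOP_CKI 4, and 582106 to 758453 in Cre_control, with 3 of 9 lower and 1 higher, against 12.3% and 10.0% of all tested genes. Their part in the Myoz2 values was not tested.

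Per kilobase of gene length, so that genes can be compared, Myoz2 was the most abundant of the 10 genes in Cre_control, at 4529 ± 718 scaled reads per kilobase (n = 5). Rcan2 followed at 1599 ± 204, then Rcan1 at 481 ± 55.8 and Ppp3r1 at 412 ± 52.9. Ppp3ca stood at 172 ± 19.8, Ppp3cb at 132 ± 24.4, Nfatc1 at 73.1 ± 11.5 and Nfatc3 at 58.6 ± 9.82. Nfatc4 and Nfatc2 were lowest, at 26.5 ± 1.78 and 25.6 ± 4.61. Of neighbours in this order, the library ranges overlapped between Rcan1 and Ppp3r1, Ppp3ca and Ppp3cb, Nfatc1 and Nfatc3, and Nfatc4 and Nfatc2. In SPOP_CKI the mean of Rcan1, 1528 ± 1154, lay above that of Rcan2, 1170.2 ± 362, and the mean of Ppp3cb, 208 ± 57.3, above that of Ppp3ca, 182 ± 38.7. The ranges of each of these pairs overlapped. The length used is that of annotated exons, and which transcripts were present was not measured, so the order of close genes is uncertain.

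**Figure D5:**
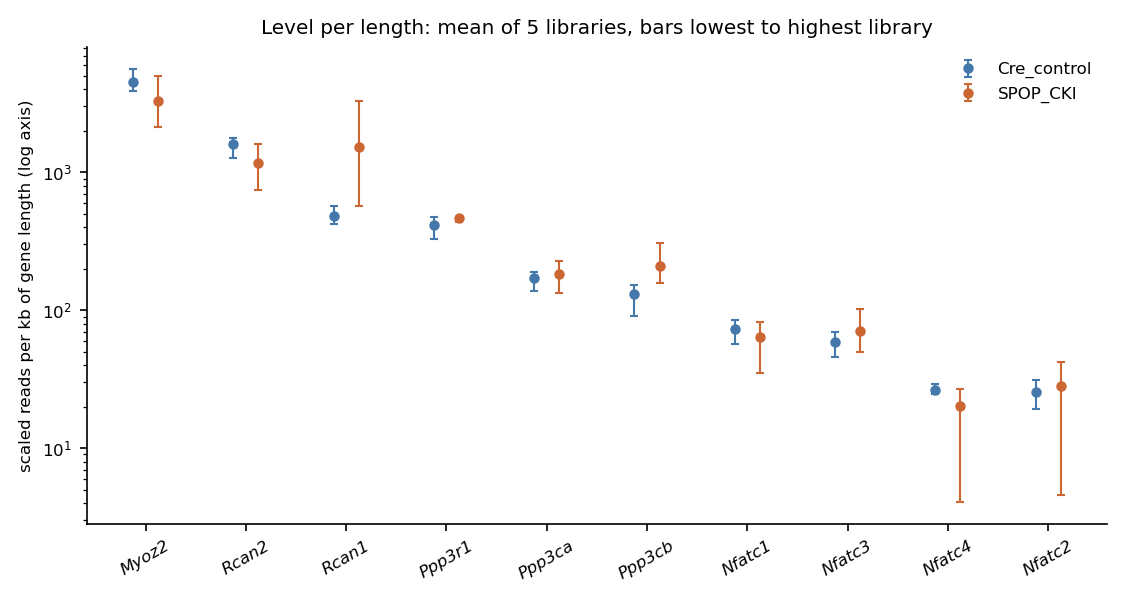
Scaled reads per kilobase of gene length for the 10 genes on a log axis, in the order of the control means, as the mean of 5 libraries with bars from the lowest to the highest library. The control means run from 4529 for Myoz2 to 25.6 for Nfatc2, and the bar of Rcan1 in SPOP_CKI runs from 569 to 3280.

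Other genes of the pathway were taken from lists. Their counts stand beside a background of 10.0% higher and 12.3% lower, and a median of −0.11, over all 14212 tested genes. Groups without overlap were seen in 9.01% of all tested genes upward and in 12.3% downward. Of 3 tested paralogs of the 10 genes, 1 rose and 0 fell, with a median of 0.33. Nfat5, the NFAT relative that responds to osmotic stress and does not need calcineurin, rose from 1088 ± 277 to 1832 ± 370 (log2 difference 0.77, SE 0.20, limma adjusted p = 0.0193). No SPOP_CKI library overlapped the controls, but the call was lost without Cre_control 1 or 2 and with GC centring (0.45). Ppp3cc, the third catalytic subunit gene, stood at −0.06 (adjusted p = 0.818) and Rcan3 at 0.33 (adjusted p = 0.164). Myoz1 was at 0 to 7.51 scaled reads, below the filter.

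Of 12 calmodulin and calmodulin-dependent kinase genes, 3 rose and 1 fell, with a median of 0.20. Camk2d, the main cardiac calmodulin-dependent kinase gene, rose from 1900.1 ± 442 to 2970 ± 379.9 (log2 difference 0.67, SE 0.19, limma adjusted p = 0.0273) with no overlap between groups. Calm2, a calmodulin gene, rose by 0.62 on the log2 scale, while Camk2b had a difference of −1.35 (limma adjusted p = 0.0368 and 0.0326). The Camk2d call was lost without Cre_control 1 or 2, that of Calm2 without SPOP_CKI 1, 2 or 4 or Cre_control 1, 3, 4 or 5, that of Camk2b without SPOP_CKI 1 or 4 or any control, and the calls of Camk2d, Calm2 and Camk2b with GC centring. Without SPOP_CKI 3, 6 of the 12 were higher, and without Cre_control 1, 1 was. Of all tested genes, 1975 of 14486 and 898 of 14431 were called higher in those settings.

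Of 12 genes for kinases that phosphorylate NFAT and so return it to the cytoplasm, 2 rose and 3 fell, with a median of −0.07. Dyrk1b fell from 375 ± 25.8 to 81.0 ± 27.4 (log2 difference −2.26, SE 0.23, limma adjusted p = 0.000278) with no overlap between groups. Its transcripts have 62.6% GC, and with GC centring the difference was −1.34. Dyrk2 rose from 583 ± 109 to 1103 ± 313 (0.89, SE 0.21, adjusted p = 0.013), also with no overlap. Both calls held under all 24 alternatives. Gsk3b had a difference of 0.67, Prkaca of −0.71 and Csnk1e of −0.62 (limma adjusted p = 0.0391, 0.0206 and 0.03), and with GC centring these 3 did not pass. The number higher was 1 without SPOP_CKI 4 or 5 or Cre_control 1, 2, 3 or 4, and the number lower was 1 without SPOP_CKI 4 or Cre_control 1. Over all tested genes 895 to 1515 were higher in the former settings. In the latter 1304 of 14383 and 1052 of 14431 were lower.

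Of 17 genes listed as anchors and inhibitors of calcineurin, or as related scaffold, Z-disc and hypertrophy genes, 2 rose and 1 fell, with a median of −0.12. Plekho1, which encodes a pleckstrin homology domain protein known to restrain cardiac hypertrophy through class II histone deacetylases, rose from 991 ± 213 to 2275 ± 677 (log2 difference 1.17, SE 0.24, limma adjusted p = 0.00647) with no overlap, and the call held under all 24 alternatives, at 1.77 with GC centring. Homer1, a scaffold gene, rose by 0.98 (adjusted p = 0.0396), a call lost without any 1 of the 5 controls or SPOP_CKI 1, 4 or 5, without the 3 libraries with Xist reads, with Xist reads as a term and with GC centring. The Z-disc gene Tcap, whose transcripts have 61.3% GC, fell by 2.83 on the log2 scale, and by 2.01 with GC centring. Without SPOP_CKI 3, and without SPOP_CKI 5, 2 fell, where 2481 of 14486 and 1865 of 14439 tested genes were called lower.

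Of 14 tested calcium entry and release channel genes upstream of calcineurin, 4 fell and 0 rose, with a median of −0.54. Cacna1c, the L-type calcium channel gene, fell from 3339 ± 480.4 to 1686 ± 580 (log2 difference −1.04, SE 0.23, limma adjusted p = 0.00963), and Orai3, a store-operated channel gene, fell from 458 ± 74.5 to 215 ± 73.1 (−1.16, SE 0.27, adjusted p = 0.0125). The groups did not overlap for these genes, and both calls held under all 24 alternatives. Itpr3, an inositol trisphosphate receptor gene, fell by 0.90 (adjusted p = 0.0438), a call lost in 13 of the 24 alternatives. The fourth was Stim1, a calcium sensor gene. Trpc4 and Trpc6, channel genes often named upstream of calcineurin, were below the filter, at 0 to 15.9 and 1.18 to 28.0 scaled reads. Without SPOP_CKI 1, 1 gene of this list was higher, as were 1415 of 14417 tested genes.

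Of 14 genes listed as transcription partners of NFAT, or as regulators of such partners, 4 fell and 0 rose, with a median of −0.52. Hdac5, a class II histone deacetylase gene whose product restrains MEF2, fell from 2264 ± 270.3 to 739 ± 451 (log2 difference −1.94, SE 0.49, limma adjusted p = 0.0176), with −1.21 under GC centring. Mef2d fell by 1.03 and Foxo3 by 1.44 on the log2 scale, the latter with −0.73 under GC centring. The fourth was Gata6, a cardiac transcription factor gene. The groups did not overlap for Hdac5 and Mef2d, and with GC centring 1 of the 4 calls remained, that of Hdac5. Without SPOP_CKI 2, 1 gene was higher, as were 1299 of 14399 tested genes.

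Of 11 tested genes known to respond to calcineurin in the heart, 6 rose and 0 fell, with a median of 1.35. The list was written with earlier results of these data known, so this count is a description and not a test of calcineurin activity. Rcan1 is 1 of the 6 and its own difference is that median, so the list is not separate from that gene. The others that rose are hypertrophy genes, Nppa, Nppb, Myh7, Ankrd1 and Xirp2. Nppa, the atrial natriuretic peptide gene, had 5427, 18587, 2753, 10206 and 3684 scaled reads in SPOP_CKI libraries 1 to 5 and 218 to 1377 in the controls (log2 difference 3.22, SE 0.59, limma adjusted p = 0.00446). Its SPOP_CKI libraries fell in the same order as those of Rcan1. The atrial gene Myl7 was at 1108 in Cre_control 1 and 292 in SPOP_CKI 1, and at 0 to 33.2 in the other libraries. The part of atrial tissue in the Nppa values was not tested. Myh7, in contrast to Nppa and Rcan1, was highest in SPOP_CKI 5, at 83721, and lowest in SPOP_CKI 4, at 10814. The latter lay within the control range of 1905 to 20635. The Myh7 call was lost with no filter on low values and with array weights. Xirp2 rose by 2.38 on the log2 scale, and by 3.22 without the 3 libraries with Xist reads. The genes of this list are known to answer to other signals as well, and the members that did not pass included Acta1 (0.22, adjusted p = 0.708) and Ptgs2 (1.31, adjusted p = 0.288). The number higher was 5 to 8 of the 11 with 1 library left out, highest without SPOP_CKI 3, and 4 to 8 over all alternatives. Over all tested genes those called higher numbered 895 to 1975 with 1 library left out, also highest without SPOP_CKI 3. They numbered 895 to 2429 over all alternatives.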

How the data were processed

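The submitters' processing notes name featureCounts 1.5.0-p3, DESeq2 1.20.0 and mm10. On the aligner, the annotation release and the strand setting, the sources used here give nothing. The signal columns deposited by the authors are reads divided by a size factor per library, and 100% of values were whole reads at a tolerance of 0.001. The authors' deposited table also gives group means of that signal, a log2 fold change, p-values and adjusted p-values.

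Genotype was tested with limma 3.58.1 (R 4.3.3, trend and robust variances, two-sided, Benjamini-Hochberg over 14212 genes) on log2(value + 1), and the fit was tested on simulated data. Such fold changes understate changes of low genes. Gene length is that of the deposited table, equal to the GENCODE M21 exonic length within 1% for 97.0% of genes. Transcript GC content is from GENCODE M21. Ratios were tested by exact permutation over 252 arrangements of the libraries. Alternatives were edgeR 4.0.16 and DESeq2 1.42.0 on recovered reads, other scalings, filters, pseudocounts and variance settings, a replicate block and leaving out each library. The Xist and GC alternatives were chosen after the data were seen.

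The members and lists were chosen with earlier results of these data known. Named were all 10 members and Spop. From each list, up to 3 called genes per direction with the largest difference were named. The 5 genes most correlated with each called member were named as well. A few genes that this rule takes are not reported here. Acta1, Ankrd1, Cytl1, Gata6, Myoz1, Nppb, Ppp3cc, Ptgs2, Rcan3, Stim1, Trpc4 and Trpc6 were chosen after their values were seen. Libraries of a group differed from each other beyond counting noise, with a chi-square over its degrees of freedom of 13.4 or more. Since the labels name no litter, batch or pooling, a p-value here reflects only how these libraries vary, which may in part be technical.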

Additional observations from a re-analysis of the deposited data

Results flagged for a closer look

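In 30 groups of 5 libraries (10 genes, Spop and 4 measures of composition, in each genotype), 3 had a library whose gap to the nearest other exceeded 0.71 of the group's range. For independent groups, chance alone flags about 1 in 20. These groups share libraries, and the 4 measures are built from the same genes, so the count cannot be set against that rate. Ppp3cb in SPOP_CKI 3 was at 2699 scaled reads, against 1397 to 1764 in the other 4 libraries of the group. Nfatc4 in SPOP_CKI 3 was at 23.6, against 135 to 157. Ppp3r1 in SPOP_CKI 2 was at 1403, against 1521 to 1534.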

How the results depend on the processing

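Of 240 recomputed differences of the 10 genes, 200 kept direction and side of the threshold, 22 lost the call, 3 gained it and 15 changed sign. All sign changes were of genes that did not pass. Those of Nfatc1 were 0.0043 without the libraries with Xist reads and 0.032 with GC centring. Those of Nfatc2 (−0.38 to 0.42 with 1 library left out) were 0.16 with edgeR, 0.14 with DESeq2, 0.17 with array weights, 0.42 without SPOP_CKI 3, 0.44 without the libraries with Xist reads and 0.39 with GC centring. Ppp3ca gave −0.070 with array weights, −0.0070 without SPOP_CKI 3, −0.022 without SPOP_CKI 5, −0.013 without Cre_control 4 and −0.10 with GC centring, with a range of −0.022 to 0.17 when 1 library was left out. With GC centring Nfatc3 gave −0.064 and Ppp3r1 −0.24. The members called higher, 2 in the main analysis, numbered 0 with no filter on low values or without trend and robust variances, 1 without the libraries with Xist reads, with Xist reads as a term or with GC centring, and 0 to 2 when 1 library was left out. Those called lower, 0 (limma; 1 gene, Rcan2, at unadjusted p under 0.05), numbered 2 with array weights and 0 to 1 with 1 library left out, and 0 with edgeR and DESeq2. Over all 14212 genes, the main fit called 1421 higher and 1747 lower. Array weights called 2429 and 2891, the fit without trend and robust variances 1314 and 1563, and Xist reads as a term 1289 and 1561. With no filter 1084 of 24888 genes were higher and 1530 lower. With 1 library left out 895 to 1975 genes were higher and 1052 to 2481 lower. Rcan1 was called in 16 and Ppp3cb in 12 of 25 settings. The Rcan1 adjusted p ranged from 0.000433 to 0.0907 and that of Ppp3cb from 0.0165 to 0.406. The Spop call held in all 24 alternatives.

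The Ppp3ca to Ppp3cb difference was −0.67 to −0.50 with 1 library left out, −0.48 without the libraries with Xist reads (exact permutation, adjusted p = 0.0571) and −0.26 with GC centring (adjusted p = 0.116). The Rcan1 to Rcan2 difference was 1.34 to 2.22 with 1 library left out and 2.38 without the libraries with Xist reads (adjusted p = 0.0571). Without the libraries with Xist reads, 3 against 4 libraries allow no p under 0.0286, so that at least 3 of the 4 measures would have to reach it for any to pass after adjustment. Rcan1 against the catalytic subunits gave 0.55 to 1.39 with 1 library left out and 1.51 with GC centring. The summed NFAT level gave −0.15 to 0.12 with 1 library left out, 0.21 without the libraries with Xist reads and 0.052 with GC centring. The cause of these shifts was not tested.

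Replicate numbers were not taken as pairs in the main fit. Correlations of the deviations of equal-numbered libraries were 0.03 to 0.16, all positive but not all over 0.1. The control of equal number was the best match for SPOP_CKI 1 and SPOP_CKI 3 only. Such weak correlations do not settle whether the libraries were paired. A replicate block left the members called higher at 2 and lower at 0. Under that block, with sign flips over 5 pairs, the smallest p is 0.0625, so the ratio tests could not pass (−0.58 for Ppp3ca to Ppp3cb and 1.85 for Rcan1 to Rcan2, adjusted p = 0.125 each). For 22 genes of the lists, 449 of 528 recomputed differences kept their call, 79 lost it and none changed sign. Of 336 list counts, 50 moved by over 1.5 times. Quantile normalization moved the median difference of all genes from −0.11 to 0.03.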
